A study of Homo sapiens with 6 samples.

Results

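The genes of sterol and fatty acid synthesis were examined in MCF-10A cells with ectopic CRB3, against cells with the empty vector. The set was a list of 31 genes by name, covering the mevalonate pathway, the steps from squalene to lanosterol and from lanosterol to cholesterol, the proteins that sense and move sterols, and the enzymes that make fatty acids and complex lipids. A gene was measured by the probe set (the group of oligonucleotides on the array that reports 1 transcript) that carried its symbol alone and had the highest mean over the 6 arrays. By this rule 28 of the 31 genes were measured, out of 19775 genes measured in all. CYP51A1 was present only in 2 probe sets that also carry the symbol LRRD1, and FADS1 only in 3 that also carry MIR1908, so their values are given apart. FDFT1 was not analysed here.

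MCF-10A is an immortalized human mammary epithelial line that is not transformed and that depends on EGF receptor signaling to grow. In the CRB3-expressing group, a retrovirus delivered human CRB3, a small transmembrane protein of the apical Crumbs polarity complex, with a myc tag at its amino terminus. The sample titles name the vector pNG for the control only. The paper obtained tagged CRB3 in pNG and describes its transfer to the vector pLNCX2, so the vectors of the groups may differ in more than CRB3. In the vector control group the cells received pNG without CRB3. Both groups were selected with puromycin as stable lines and kept in the usual growth medium of this line. The paper states that EGF was present for these arrays. The cells were harvested while proliferating as monolayers at 70% confluence, with 3 samples per group and 1 Affymetrix Human Genome U133 Plus array per sample. The promoter that drives CRB3 is not given in the sources used here, and none of them describes the triplicates as independent infections, so that a p-value reflects only how these samples spread, which may be technical. In bulk RNA, a lower level cannot be divided between fewer cells of a kind and less RNA per cell.

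Cholesterol is made from acetyl-CoA through mevalonate, squalene and lanosterol, and fatty acids are made from acetyl-CoA through malonyl-CoA. The genes for both routes are driven by the sterol regulatory element binding proteins, SREBP-1 and SREBP-2, which SCAP escorts out of the endoplasmic reticulum and INSIG proteins hold there when sterol is plentiful. When sterol runs low, most genes of the cholesterol route are known to rise together, and growing epithelial cells use both routes to build membrane.

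The checks on the arrays gave no sign that samples were exchanged. The log2 value of the CRB3 transcript was 12.11 ± 0.10 in CRB3-expressing cells, against 7.78 ± 0.17 in vector control cells (SD, n = 3 each), a 20.1-fold difference. The median log2 value of an array lay between 5.84 and 5.88, and Pearson's r between arrays over all probe sets was 0.997 to 0.998 inside a group and 0.994 to 0.996 between groups. The hybridization controls, transcripts added to every array in known amount, averaged 11.33 on vector control replicate 1 and between 10.89 and 11.08 on the other arrays. Of 6 epithelial markers measured, 4 were higher in CRB3-expressing cells at a limma adjusted p under 0.05, where 3.37% of all genes were higher. These were KRT14 by 1.83, CDH1 by 1.10, EPCAM by 0.38 and KRT18 by 0.36 on the log2 scale. KRT5 had a mean of 13.58 in CRB3-expressing cells, against 13.62 in vector control cells. Of 5 adipocyte markers, 0 passed the test at an adjusted p under 0.05 from limma or at an unadjusted p under 0.05, and the same held for 3 leukocyte and 3 endothelial markers. Of 5 fibroblast markers 1 passed as lower, DCN, with a log2 fold change of -0.76, where 1.77% of all genes were lower at the adjusted p. ADIPOQ, an adipocyte marker, stood at 3.61 in CRB3-expressing cells, against 3.59 in vector control cells.

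Promoters are shown for the 2 genes of the set whose difference passed the adjusted p, LSS and TM7SF2, and for the genes of the 2 SREBP factors, SREBF1 and SREBF2. The sequences are the 250 bases before the annotated start in RefSeq (GRCh38.p14), 5′ to 3′ on the gene's own strand, and the capitals mark matches on either strand to 3 motifs. These were TCACNCCAC, a form of the sterol regulatory element that SREBPs bind, CCAAT, which NF-Y binds, and GGGCGG, which SP1 binds. The marked matches do not overlap. The intervals are chr21:46228775-46229024 on the minus strand for LSS, chr11:65111622-65111871 on the plus strand for TM7SF2, chr17:17836987-17837236 on the minus strand for SREBF1 and chr22:41832855-41833104 on the plus strand for SREBF2.
LSS: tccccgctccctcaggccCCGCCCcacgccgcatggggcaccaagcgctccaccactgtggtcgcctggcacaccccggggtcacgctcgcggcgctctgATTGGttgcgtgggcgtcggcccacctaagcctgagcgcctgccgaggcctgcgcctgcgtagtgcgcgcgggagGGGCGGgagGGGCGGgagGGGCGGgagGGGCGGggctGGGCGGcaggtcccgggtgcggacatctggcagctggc
TM7SF2: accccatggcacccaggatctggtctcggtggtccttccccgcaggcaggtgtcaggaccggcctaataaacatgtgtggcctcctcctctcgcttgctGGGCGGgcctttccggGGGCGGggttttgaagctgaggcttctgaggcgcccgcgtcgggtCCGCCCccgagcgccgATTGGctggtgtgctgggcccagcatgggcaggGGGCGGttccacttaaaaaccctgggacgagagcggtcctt
SREBF1: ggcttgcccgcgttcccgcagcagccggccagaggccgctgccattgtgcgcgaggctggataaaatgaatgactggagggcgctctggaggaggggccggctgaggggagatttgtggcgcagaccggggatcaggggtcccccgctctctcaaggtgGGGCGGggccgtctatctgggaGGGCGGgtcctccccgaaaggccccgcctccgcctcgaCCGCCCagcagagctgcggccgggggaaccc
SREBF2: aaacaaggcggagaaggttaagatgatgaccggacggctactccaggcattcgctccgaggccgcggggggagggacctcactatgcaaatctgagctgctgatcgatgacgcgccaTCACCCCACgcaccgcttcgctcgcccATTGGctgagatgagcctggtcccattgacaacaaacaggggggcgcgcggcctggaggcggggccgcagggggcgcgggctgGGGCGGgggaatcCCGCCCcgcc
In the LSS sequence 1 CCAAT and 6 GGGCGG matches were found, and in the TM7SF2 sequence 1 CCAAT and 4 GGGCGG matches. The SREBF2 sequence held the letters TCACCCCAC once, with 1 CCAAT and 2 GGGCGG matches, while the SREBF1 sequence held 3 GGGCGG matches and no match to the other motifs. Of the 31 genes, 28 had a promoter in the table, CYP51A1 and FADS1 among them. CCAAT was found in 20 of these 28 genes (71.4%), against 37.0% of the 27305 genes in the table, and GGGCGG in 27 of 28 (96.4%), against 46.2%. TCACNCCAC was found only for SREBF2 among the 28 (3.57%), against 1.09% of all genes. A match describes the letters in this window and is not a measured binding site.

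None of the 28 genes changed by the thresholds of the study's methods, an adjusted p under 0.05 from limma with a fold change above 1.5. The count was 0 higher and 0 lower in CRB3-expressing cells, where 1.43% of all genes were higher and 0.465% were lower. With the adjusted p alone, 2 of 28 were higher, LSS and TM7SF2, against 3.37% of all genes, and 0 were lower, against 1.77%. The count of 2 ran from 0 to 10 over the alternative settings: it was 10 with a mean-variance trend, where 5.09% of all genes were higher, and 0 with ordinary in place of moderated variances or without CRB3-expressing replicate 2, CRB3-expressing replicate 3 or vector control replicate 1. At an unadjusted p under 0.05, 10 of 28 were higher, against 10.4% of all genes, and 1 was lower, SREBF1, against 8.39%. The log2 fold changes, which are those of CRB3-expressing over vector control cells, ran from -0.30 for SREBF1 to 0.44 for TM7SF2.

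The differences, though small, were mostly of 1 sign. The log2 fold change was positive for 24 of 28 genes (85.7%) and negative for SREBF1, SCAP, STARD4 and FASN, while 52.3% of all genes were positive. Its median was 0.12 over the 28 genes and 0.0066 over all 19775. Every CRB3-expressing array lay above every vector control array for 16 of 28 genes, against 14.5% of all genes, and below for 1, SREBF1, against 12.1%. The genes are known to share regulators and are measured in the same 6 samples, so they are not 28 independent observations. The list was also chosen with earlier results of these data known, and no test was made over it. The 95% interval of the difference from limma stayed inside 1.5-fold in either direction for 27 of 28 genes, and that of TM7SF2 reached 1.54-fold.

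**Figure D1:**
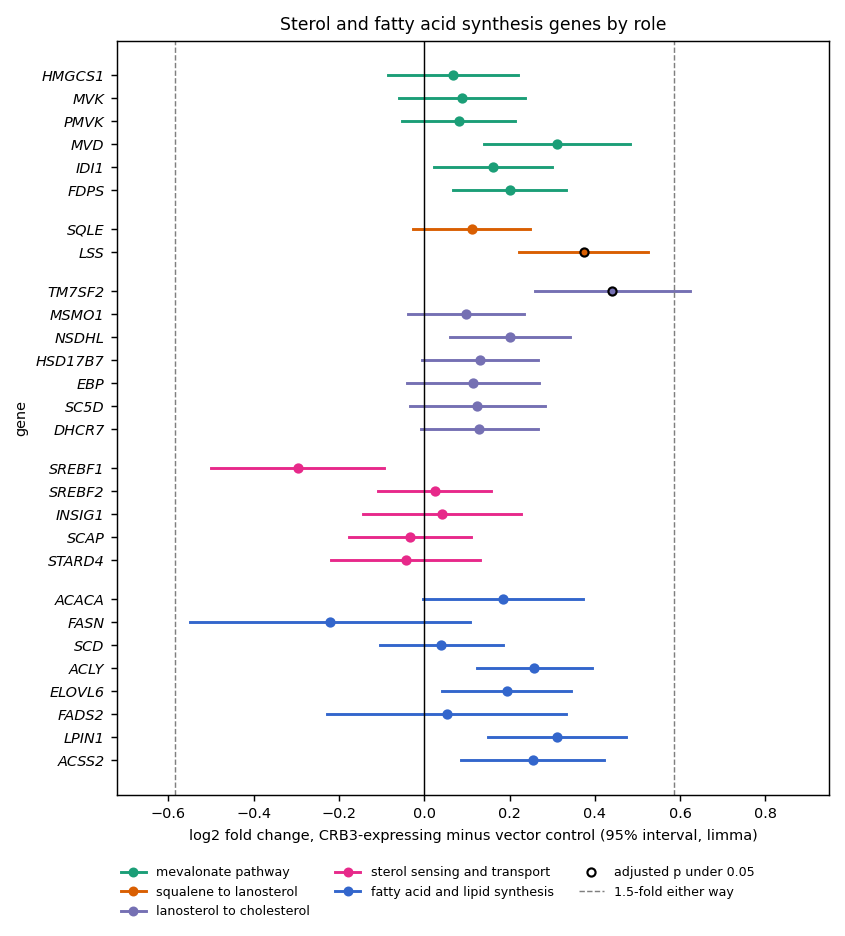
Log2 fold change of each of the 28 measured genes in CRB3-expressing over vector control cells, with the 95% interval from limma (3 arrays per group), grouped and coloured by role. Black rings mark LSS (0.37) and TM7SF2 (0.44), with an adjusted p under 0.05, and the dashed lines mark a 1.5-fold difference, which only the interval of TM7SF2 crosses.

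The plot of fold changes by role shows 10 of the 28 intervals wholly above 0, all of them of enzymes, and that of SREBF1 wholly below it, while the others include 0. The same shift is seen in the cumulative curves, where the curve of the 28 genes lies to the right of the curve of all genes over most of its course.

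**Figure D2:**
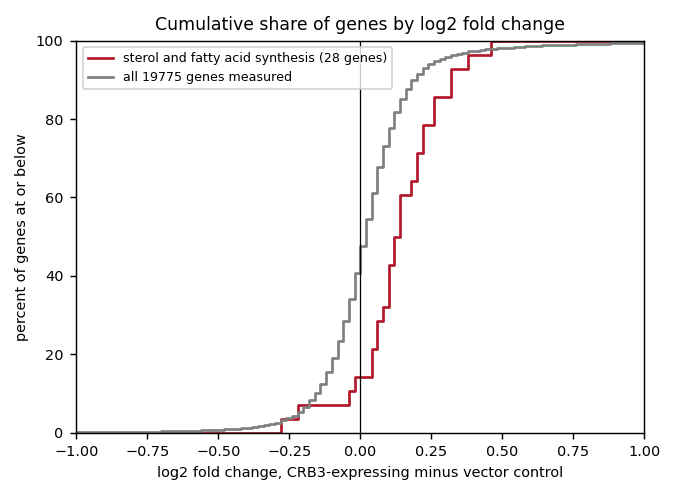
Percent of genes (y axis) whose log2 fold change (CRB3-expressing over vector control) is at or below the value on the x axis, for the 28 sterol and fatty acid synthesis genes and for all 19775 genes measured; values beyond the ends of the x axis are not drawn. The median is 0.12 for the 28 genes and 0.0066 for all genes.

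The 6 measured genes of the mevalonate pathway, which builds isoprenoid units from acetyl-CoA, all had positive log2 fold changes, with a median of 0.13, and 0 of them passed the adjusted p. HMGCS1 makes HMG-CoA at the entry to the pathway. Its log2 values were 11.32, 11.29 and 11.16 in CRB3-expressing cells, against 11.17, 11.24 and 11.17 in vector control cells. The groups overlapped, with a log2 fold change of 0.067 (SE 0.067, limma adjusted p = 0.687) and an interval from -0.085 to 0.22. MVD, the decarboxylase that yields isopentenyl diphosphate, had values of 8.94, 9.01 and 9.18 in CRB3-expressing cells, against 8.74, 8.69 and 8.77 in vector control cells. All 3 CRB3-expressing arrays were above the vector control arrays, and the log2 fold change was 0.31 (SE 0.075, limma adjusted p = 0.0639). FDPS, the farnesyl diphosphate synthase, had a log2 fold change of 0.20 and IDI1, the isopentenyl diphosphate isomerase, of 0.16, both without overlap between the groups. The kinases MVK and PMVK had log2 fold changes of 0.089 and 0.080, with overlap for MVK and none for PMVK.

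Squalene is oxidized by SQLE, a rate-setting enzyme of the sterol branch, and closed to lanosterol by LSS. SQLE had log2 values of 12.57, 12.59 and 12.57 in CRB3-expressing cells, against 12.41, 12.50 and 12.50 in vector control cells. The groups did not overlap, but the log2 fold change was only 0.11 (SE 0.060, limma adjusted p = 0.418). For LSS the values were 11.24, 11.38 and 11.32 in CRB3-expressing cells, against 10.90, 10.91 and 11.00 in vector control cells. Each CRB3-expressing array was above each vector control array, and LSS was 1.30-fold higher (log2 fold change 0.37, SE 0.067, limma adjusted p = 0.0165). The other LSS probe sets, which are dimmer, had log2 fold changes of 0.23 (adjusted p = 0.333) and 0.41 (adjusted p = 0.0919), of the same sign and not past the threshold. The adjusted p of LSS was 0.0823 without moderated variances, 0.0719 without CRB3-expressing replicate 2, 0.0617 without CRB3-expressing replicate 3, 0.0658 without vector control replicate 1 and 0.0612 without vector control replicate 2, and it stayed under 0.05 in the other 10 of 15 alternative settings, where it was as low as 3.4e-04.

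The 7 enzymes measured between lanosterol and cholesterol also had only positive log2 fold changes, with a median of 0.13, and for 6 of them every CRB3-expressing array was above every vector control array, against 14.5% of all genes. TM7SF2, a sterol reductase of the step that follows the demethylation of lanosterol, had values of 7.49, 7.69 and 7.74 in CRB3-expressing cells, against 7.14, 7.21 and 7.25 in vector control cells. All CRB3-expressing arrays were above the vector control arrays, and TM7SF2 was 1.36-fold higher (log2 fold change 0.44, SE 0.080, limma adjusted p = 0.0175). Its adjusted p was 0.139 without moderated variances, 0.0812 without CRB3-expressing replicate 2, 0.0682 without CRB3-expressing replicate 3, 0.0696 without vector control replicate 1 and 0.0571 without vector control replicate 2, and it was under 0.05 in the other 9 of 14 alternative settings, down to 0.00487. TM7SF2 was measured by 1 probe set, of a kind that the maker marks as shared between transcripts. The value was smaller for NSDHL, which removes the carboxylated methyl groups, at 0.20 (adjusted p = 0.142). DHCR7, which completes cholesterol, HSD17B7, SC5D, EBP and MSMO1 had log2 fold changes of 0.13, 0.13, 0.12, 0.11 and 0.097, with adjusted p between 0.331 and 0.480. SC5D was the gene whose groups overlapped. Of the other probe sets in this branch, the dimmer one of SC5D (-0.10) and 1 of the 3 dimmer ones of EBP (-0.18) had the opposite sign. The 2 probe sets of CYP51A1, the lanosterol demethylase, had log2 fold changes of 0.055 and -0.019.

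**Figure D3:**
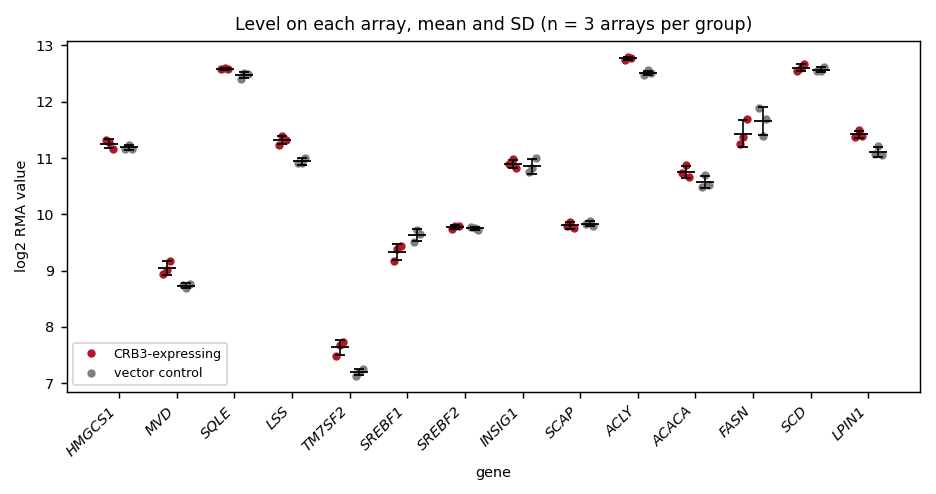
Log2 RMA value (y axis) of 14 genes of the set on each array, with red points for CRB3-expressing and grey points for vector control samples, and black bars for the mean and SD of 3 arrays. LSS and TM7SF2 stand apart between the groups, SREBF1 stands lower in CRB3-expressing cells (9.33, against 9.63), and FASN has the wide spread described in the text.

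The levels on each array differ from gene to gene partly through the probes, so they are compared within a gene only. The 5 genes of sterol sensing and transport had a median log2 fold change of -0.032, with 2 of 5 positive and 0 past the adjusted p. SREBF1, the gene of SREBP-1, had values of 9.17, 9.38 and 9.44 in CRB3-expressing cells, against 9.51, 9.73 and 9.65 in vector control cells. All 3 CRB3-expressing arrays lay below the vector control arrays, with a log2 fold change of -0.30 (SE 0.089, limma adjusted p = 0.131), which did not pass the threshold. Its second probe set also did not overlap between the groups, at -0.19 (adjusted p = 0.197). In the mean over both probe sets, SREBF1 passed the adjusted p as lower, as it did with a mean-variance trend.

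SREBF2, the gene of SREBP-2, the factor tied more closely to cholesterol, had values of 9.74, 9.79 and 9.80 in CRB3-expressing cells, against 9.78, 9.76 and 9.72 in vector control cells. These overlapped, with a log2 fold change of 0.024 (limma adjusted p = 0.886) and an interval from -0.11 to 0.16. The dimmer probe sets of SREBF2 had the opposite sign, at -0.020 and -0.026, and also overlapped. INSIG1, itself an SREBP target that rises when sterol is low, had values of 10.89, 10.98 and 10.83 in CRB3-expressing cells, against 10.75, 10.82 and 11.00 in vector control cells. The highest value of INSIG1 was that of a vector control array, and the log2 fold change was 0.042 (limma adjusted p = 0.856), with 0.017 and 0.057 in its other probe sets. SCAP, the escort of the SREBPs, had values of 9.78, 9.87 and 9.76 in CRB3-expressing cells, against 9.83, 9.88 and 9.80 in vector control cells, which also overlapped (log2 fold change -0.032, adjusted p = 0.855). STARD4, a carrier of sterol between membranes, had a log2 fold change of -0.044 (limma adjusted p = 0.835).

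The 8 genes of fatty acid and lipid synthesis had a median log2 fold change of 0.19, with 7 positive, against 52.3% of all genes, 4 with every CRB3-expressing array above, against 14.5% of all genes, and 0 higher at the adjusted p, against 3.37% of all genes. ACLY, which cuts cytosolic citrate into acetyl-CoA, and LPIN1, a phosphatidate phosphatase and coregulator, came closest and are given here because of their values. ACLY had values of 12.75, 12.80 and 12.77 in CRB3-expressing cells, against 12.48, 12.56 and 12.51 in vector control cells. LPIN1 had values of 11.38, 11.50 and 11.39 in CRB3-expressing cells, against 11.07, 11.21 and 11.05 in vector control cells. Neither gene overlapped between the groups: the log2 fold change was 0.26 for ACLY (SE 0.059, limma adjusted p = 0.0527) and 0.31 for LPIN1 (SE 0.071, limma adjusted p = 0.0507). LPIN1 passed the adjusted p in 6 of 15 alternative settings, among them without vector control replicate 2 (0.0489), and ACLY in 3 of 14. A second LPIN1 probe set was past the adjusted p at 0.28 (adjusted p = 0.0337). ACSS2, which makes acetyl-CoA from acetate, and ELOVL6, which lengthens palmitate, had log2 fold changes of 0.25 and 0.19, with adjusted p of 0.118 and 0.186 and no overlap.

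ACACA, the acetyl-CoA carboxylase that makes malonyl-CoA, had values of 10.73, 10.87 and 10.66 in CRB3-expressing cells, against 10.49, 10.70 and 10.52 in vector control cells. The lowest CRB3-expressing array was below the highest vector control array, and the log2 fold change was 0.19 (SE 0.083, limma adjusted p = 0.312). FASN, which builds palmitate from malonyl-CoA, had values of 11.24, 11.37 and 11.70 in CRB3-expressing cells, against 11.88, 11.39 and 11.70 in vector control cells. FASN spread more than any other gene of the set, with an SD of 0.24 in CRB3-expressing cells, against 0.25 in vector control cells, and its log2 fold change of -0.22 had an interval from -0.55 to 0.11 (limma adjusted p = 0.514). It was -0.12 without CRB3-expressing replicate 1, -0.35 without CRB3-expressing replicate 3, -0.11 without vector control replicate 1 and -0.35 without vector control replicate 2, with no adjusted p under 0.05. SCD, the main stearoyl-CoA desaturase, had values of 12.55, 12.60 and 12.67 in CRB3-expressing cells, against 12.54, 12.55 and 12.61 in vector control cells. These overlapped, and the interval of its log2 fold change of 0.040 ran from -0.10 to 0.18 (limma adjusted p = 0.819). FADS2, a desaturase of polyunsaturated fatty acids, had a log2 fold change of 0.053 (SE 0.12, limma adjusted p = 0.882), and the 3 probe sets shared by FADS1 and MIR1908 had log2 fold changes between -0.20 and -0.055.

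**Figure D4:**
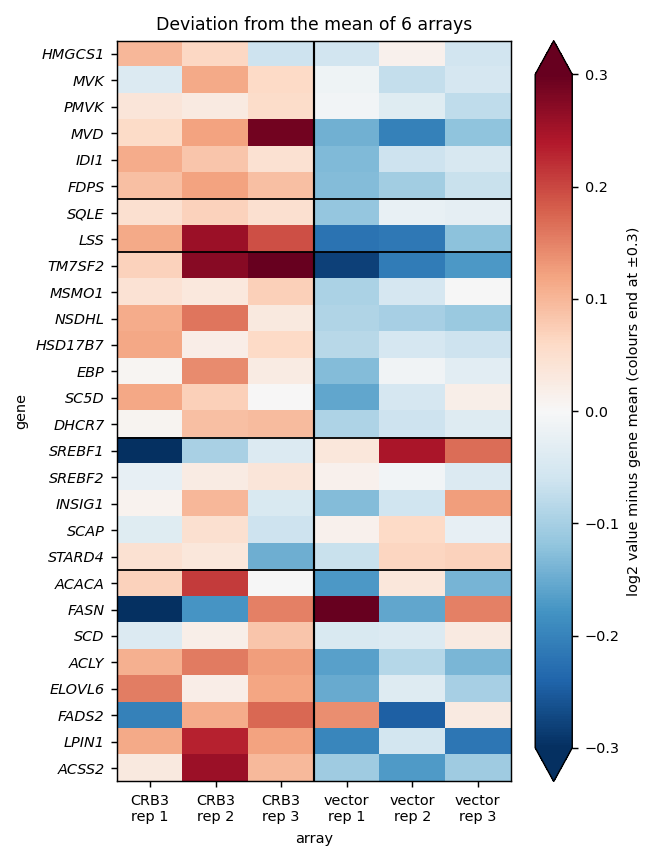
Log2 value of each of the 28 genes (rows, in order of role, with lines between roles) on each array (columns), minus the gene's mean over the 6 arrays; red is above and blue below the mean, and the colours end at 0.3 in either direction. The 3 CRB3-expressing columns are mostly red and the 3 vector control columns mostly blue, with SREBF1 the other way round. Rows are mixed for HMGCS1, MVK, SC5D, the other sensing and transport genes, ACACA, FASN, SCD and FADS2.

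The heat map gives the same values array by array. Averaged over the 28 genes, the deviation from the gene's mean was 0.021, 0.092 and 0.069 in CRB3-expressing replicates 1, 2 and 3 and -0.080, -0.060 and -0.042 in vector control replicates 1, 2 and 3. The averages of the groups did not overlap. The same was seen in the mevalonate genes, the steps to lanosterol, the steps to cholesterol and the fatty acid and lipid genes taken apart. Those of sterol sensing and transport overlapped. Vector control replicate 1 was the lowest array for 15 of 28 genes, and CRB3-expressing replicate 2 the highest for 10. Vector control replicate 1 was also the array with the higher hybridization controls, whose part in these values was not tested. Without it, the median log2 fold change was 0.11, 23 of 28 genes were positive and 0 passed the adjusted p.

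Over all 63 single-gene probe sets of the 28 genes, the log2 fold change was positive in 50 and negative in 13, with a median of 0.084. The adjusted p was passed by 3, all higher, where 3.37% of all genes, at 1 probe set each, were higher. Of the 19 genes with several such probe sets, 13 had the same sign in all of them. The dimmest probe set of IDI1, of SQLE and of ACACA had a negative value (-0.12, -0.13 and -0.041), while the other probe sets of these genes were positive. With the mean over a gene's probe sets in place of the brightest, the median of the 28 genes was 0.076. At the adjusted p, 5 were then higher, against 4.5% of all genes, and 1 lower, against 2.84%.

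Neighbouring pathways were counted from lists of gene names, which were chosen with earlier results of these data known. Of 4 other genes of sterol synthesis measured, 0 passed the adjusted p, against 2 higher and 1 lower with a mean-variance trend. GGPS1, ACAT2 and ERG28 had log2 fold changes of 0.18, 0.17 and 0.15, and LBR, which can carry out the same reduction as TM7SF2, had -0.16 (adjusted p = 0.251), all without overlap between the groups. Of 10 genes of sterol uptake, transport and sensing, 1 was higher at the adjusted p, NPC1, which exports cholesterol from lysosomes. Of all genes, 3.37% were higher. NPC1 had values of 10.26, 10.31 and 10.18 in CRB3-expressing cells, against 9.78, 9.93 and 9.85 in vector control cells (a log2 fold change of 0.39 with an SE of 0.069, limma adjusted p = 0.0147). Its other probe sets, at or below a mean of 5.52, did not pass, and 1 of them was negative, so that the mean over its probe sets gave 0.14 (limma adjusted p = 0.211). The adjusted p was between 0.0522 and 0.0672 without CRB3-expressing replicate 1 or 2 or vector control replicate 1 or 3, and 0.0890 without moderated variances. Of 6 genes of LXR, the receptor that responds to oxysterols, and its targets, 0 were higher and 0 lower at the adjusted p, against 1 lower with a mean-variance trend, median-centred arrays, a second quantile normalization, dim probe sets left out, array weights, the mean over a gene's probe sets or vector control replicate 1 left out. ABCG1, a sterol exporter, was closest, with a log2 fold change of -0.38 (adjusted p = 0.0522).

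Among genes of fat storage, 2 were lower in CRB3-expressing cells. Of 9 measured, GPAM, the acyltransferase that starts glycerolipid synthesis, and DGAT2, which completes triglyceride, were lower at the adjusted p. Of all genes, 1.77% were lower. GPAM had values of 7.75, 7.64 and 7.83 in CRB3-expressing cells, against 8.03, 8.07 and 8.20 in vector control cells (a log2 fold change of -0.36 with an SE of 0.076, limma adjusted p = 0.0397). DGAT2 had values of 7.35, 7.36 and 7.52 in CRB3-expressing cells, against 7.69, 7.73 and 7.74 in vector control cells (a log2 fold change of -0.31 with an SE of 0.068, limma adjusted p = 0.0436). Neither passed the fold threshold, and the second probe set of each had the same sign without passing. Leaving out an array ended most of these calls: GPAM had an adjusted p of 0.0563 to 0.139 without any 1 of the 6, and DGAT2 one of 0.103 to 0.152 without any array but CRB3-expressing replicate 3, where it was 0.0369, and without moderated variances neither gene passed. The other 7 storage genes did not pass, 6 of them with positive values.

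Changes past both thresholds were found among relatives of the listed fatty acid genes. Of 17 other genes of elongation, desaturation and activation, 2 were higher at both thresholds, against 1.43% of all genes, and 0 lower, against 0.465%. At the adjusted p alone, 4 were higher, against 3.37% of all genes. SCD5, a stearoyl-CoA desaturase encoded apart from SCD, had values of 10.95, 10.97 and 11.12 in CRB3-expressing cells, against 9.63, 9.43 and 9.66 in vector control cells. SCD5 was thus 2.71-fold higher (log2 fold change 1.44, SE 0.082, limma adjusted p = 2.16e-05), and its next brightest probe set was higher by 1.05. The other 2 SCD5 probe sets, with means of 5.73 and 4.27, were not called, and the mean over its probe sets gave 0.68. FADS3, a desaturase beside FADS1 and FADS2 in sequence, had values of 9.53, 9.59 and 9.50 in CRB3-expressing cells, against 8.93, 9.00 and 8.90 in vector control cells (1.51-fold, log2 fold change 0.59, limma adjusted p = 9.05e-04), with 0.61 in its second probe set. FADS3 was close to the fold threshold and below it with median-centred arrays (0.58) and without CRB3-expressing replicate 2 (0.57) or vector control replicate 3 (0.57). HACD2, the dehydratase of the elongation cycle, and the elongase ELOVL7 had log2 fold changes of 0.36 (adjusted p = 0.0152) and 0.38 (adjusted p = 0.0186). HACD2 did not pass without CRB3-expressing replicate 2 or 3 or vector control replicate 1 or 2 (limma adjusted p of 0.0584 to 0.0651), nor ELOVL7 without any CRB3-expressing array or vector control replicate 1 (0.0516 to 0.0828), and without moderated variances the adjusted p was 0.0566 for HACD2 and 0.0974 for ELOVL7. In each of these 4 genes every CRB3-expressing array was above every vector control array, against 14.5% of all genes. They were named for passing the adjusted p on the same arrays, so this adds no separate evidence.

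**Figure D5:**
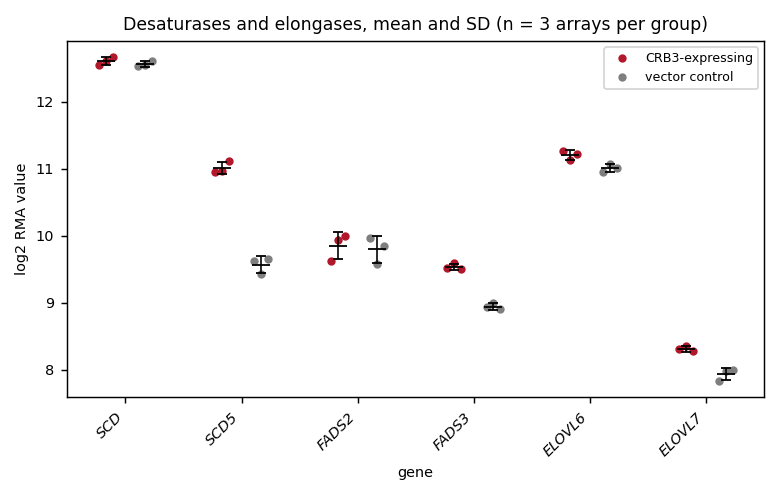
Log2 RMA value (y axis) on each array of 3 genes of the set, each beside a relative outside it: SCD with SCD5, FADS2 with FADS3 and ELOVL6 with ELOVL7; red points are CRB3-expressing and grey points vector control samples, and black bars the mean and SD of 3 arrays. SCD5 has a mean of 11.01 in CRB3-expressing cells, against 9.57 in vector control cells, while the points of SCD and of FADS2 overlap.

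The plot of desaturases and elongases sets the pairs side by side. Whether members of a pair differ in their response was not tested. Of 4 genes of citrate and NADPH supply, 0 passed the adjusted p. Of 11 genes of fatty acid oxidation and the PPAR receptors, 1 passed as higher, PPARD, a nuclear receptor for fatty acids, where 3.37% of all genes were higher. PPARD had values of 9.27, 9.28 and 9.13 in CRB3-expressing cells, against 8.66, 8.77 and 8.69 in vector control cells. Its log2 fold change of 0.52 (limma adjusted p = 0.00342) was below the fold threshold. PPARD stayed past the adjusted p without each array in turn, but not without moderated variances (limma adjusted p = 0.0584), and the mean over its probe sets gave 0.29. A dimmer PPARD probe set passed the adjusted p as well, at 0.36 (adjusted p = 0.0376).

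Of 14 genes of proliferation, 0 were higher and 2 were lower at the adjusted p in CRB3-expressing cells, where 1.77% of all genes were lower. The count was 8 with a mean-variance trend, 3 with dim probe sets left out, 1 without moderated variances and 0 to 2 with 1 array left out. All 14 had negative log2 fold changes, with a median of -0.15, and for 12 of them every CRB3-expressing array was below every vector control array, against 12.1% of all genes. TOP2A, the topoisomerase of dividing cells, had values of 11.02, 10.93 and 10.95 in CRB3-expressing cells, against 11.32, 11.26 and 11.34 in vector control cells (a log2 fold change of -0.34, limma adjusted p = 0.0175). CDK1, the mitotic kinase, had values of 11.91, 11.78 and 11.79 in CRB3-expressing cells, against 12.13, 12.15 and 12.11 in vector control cells (a log2 fold change of -0.30, limma adjusted p = 0.0366). The other 12 did not pass the adjusted p. TOP2A did not pass without CRB3-expressing replicate 2 or 3 or vector control replicate 1 or 3 (limma adjusted p of 0.0664 to 0.0750), nor CDK1 without any array but CRB3-expressing replicate 1 (0.0873 to 0.132), and CDK1 was at -0.21 (limma adjusted p = 0.224) in the mean over its probe sets. The part of growth state in the values of the synthesis genes was not tested.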

How the data were processed

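Total RNA of 3 CRB3-expressing and 3 vector control samples was hybridized to 6 arrays. The log2 values deposited by the authors, 1 for each probe set on each array, had been background-corrected and normalized by Robust Multichip Average, and were used unchanged (versions are not given in the sources used here). These values carry no detection calls, so dim probe sets may understate a difference, and 3 arrays per group limit the precision. Differences were fitted with the lmFit and eBayes functions of limma 3.58.1 under R 4.3.3 on 54613 probe sets, with the 62 control probe sets left out and Benjamini-Hochberg adjustment over all of them. The 31 genes and the other lists were chosen with earlier results of these data known. Genes were named from the platform annotation, and a probe set without exactly 1 symbol entered the fit unnamed, except those of CYP51A1 and FADS1. Array values are given for genes of the set with an adjusted p under 0.05. They are also given for SREBF1, SREBF2, INSIG1, SCAP, SQLE, ACACA, FASN, SCD and HMGCS1. In other lists they are given for up to 3 genes past the adjusted p, though not for HACD2. MVD, ACLY, LPIN1 and ELOVL7, the fourth gene of its list, were added after their values were seen. ABCG1, given without array values, was added in the same way. The fit was tested on simulated data, where the adjusted p recovered 4% of log2 changes of 0.3 and 64% of those of 0.6. Only 50 probe sets were changed at each size, out of 54613, with noise of each probe set's own spread. In the real data 3.37% of genes were higher and 1.77% lower, and with more genes passing, the adjusted p is less strict. The recovered shares are therefore not the power of the real fit. A gene that did not pass the adjusted p may still differ by a small amount. Alternatives were a replicate block, a robust prior with a mean-variance trend, ordinary in place of moderated variances, and arrays centred on their medians or normalized again by quantiles. Others were array weights, leaving out dim probe sets, those with a mean under the median of all probe set means, and leaving out probe sets shared between transcripts. The rest were the mean over a gene's probe sets, other fold thresholds and leaving out each array.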

Additional observations from a re-analysis of the deposited data

How the results depend on the processing

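The count of genes past both thresholds was 0 higher and 0 lower under every alternative run with a fold threshold of 1.5 or 2, and 2 higher with no fold threshold. The alternatives for the other counts were added after the data were seen. Genes higher at the adjusted p alone, 2 of 28, were 10 with a mean-variance trend and robust prior (5.09% of all genes) and 0 with no empirical Bayes (1.51%). They were 4 with a second quantile normalization (3.37% of all genes) and 7 with dim probe sets left out (7.18% of the genes left). With the mean over a gene's probe sets they were 5 (4.5% of all genes). With probe sets shared between transcripts left out, the count was 1 of 19 (3.02% of the genes left). Leaving out 1 array gave 0 to 2: 0 without CRB3-expressing replicate 2, CRB3-expressing replicate 3 or vector control replicate 1, and 1, LPIN1, without vector control replicate 2. Genes lower at the adjusted p alone were 1, SREBF1, with the trend (3.84% of all genes) and with the mean over probe sets (2.84%). With shared probe sets left out, 19 genes were measured, of which 14 were positive and 9 had every CRB3-expressing array above, with a median of 0.089, and the median was 0.076 with the mean over probe sets. Leaving out 1 array gave a median between 0.11 and 0.14, 23 or 24 positive genes, and 16 to 19 genes without overlap, beside 18.3% to 21.2% of all genes. The sign turned for IDI1 (-0.12) and SC5D (-0.10) with shared probe sets left out, for SREBF2 (-0.0073) with the mean over probe sets, for STARD4 (0.018) and FADS2 (-0.020) without CRB3-expressing replicate 3, for INSIG1 (-0.013) without vector control replicate 1 and for FADS2 (-0.057) without vector control replicate 2, none of them past the threshold in either setting. Over the arrays left out, STARD4 ran from -0.089 to 0.018, FADS2 from -0.057 to 0.17, INSIG1 from -0.013 to 0.12, SCD from 0.0078 to 0.070, HMGCS1 from 0.035 to 0.11, SREBF2 from 0.010 to 0.042 and SCAP from -0.065 to -0.0099. The mean-variance trend also gave 1 lower gene each in the lists of elongation, of citrate and NADPH supply and of oxidation, in place of 0. The causes were not tested, apart from the smaller number of genes or arrays that an alternative itself leaves.

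Samples of equal number did not deviate together (r = -0.085, 0.064 and 0.029 for numbers 1, 2 and 3), so the numbers were not taken as pairs. With a replicate block, 2 genes of the set were higher at the adjusted p and the median stayed at 0.12, while genes higher in all were 526 in place of 666, and GPAM, DGAT2, TOP2A and CDK1 no longer passed, while 1 gene of the LXR list became lower.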
